A study of Mus musculus with 9 samples.

Results

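Ccl1, Ccl3, Ccl4, Ccl5 and Xcl1 are chemokine genes that stimulated T cells transcribe. They were taken by gene symbol, as every probe set whose platform annotation lists such a gene and no other. Each had 1 probe set, so 5 genes of 18193 and 5 probe sets of 34945 are described here. The groups were C57BL/6 T cells kept with allogeneic dendritic cells of the BALB/c strain, C57BL/6 T cells stimulated by anti-CD3e plus anti-CD28 mAB9 (0.1 µg/ml), with no dendritic cells named, and C57BL/6 T cells kept with syngeneic dendritic cells of their own strain. All 3 cultures lasted 24 h, the co-cultures held 20 T cells per dendritic cell, and each group had 3 arrays, labelled biological rep 1, 2 and 3 with no animal named. Every group went through the same later steps: T cells were isolated with CD11c microbeads and magnetic negative selection, exposed to ultraviolet light and lysed, and RNA was recovered with an antibody to Argonaute (AGO), which is loaded with microRNAs and binds their target transcripts. The values are log2 array signals of that AGO-bound RNA. They do not separate transcript abundance from AGO binding, and fewer cells of a type cannot be told apart from less RNA per cell. The labels call the arrays of a group biological reps but do not say whether a number stands for an animal, a culture or a day, so errors and p-values measure the spread between these 9 arrays, whose number limits the precision.

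Chemokines are small secreted proteins that draw cells bearing matching G protein-coupled receptors. T cells release several of them within hours of receptor stimulation, together with interferon gamma. Ccl3 and Ccl4 encode the macrophage inflammatory proteins, which draw macrophages and T cells, and Ccl3 acts on Ccr1. Ccl5 encodes RANTES, a ligand of Ccr1 and Ccr3 that memory and effector T cells keep ready. Xcl1 encodes lymphotactin, whose receptor Xcr1 marks cross-presenting dendritic cells. Ccl1 encodes a ligand of Ccr8, a receptor of helper and regulatory T cells. Macrophages and dendritic cells also transcribe Ccl3, Ccl4 and Ccl5, and NK cells transcribe Ccl3, Ccl4, Ccl5 and Xcl1.

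Promoter sequences from RefSeq (build GRCm38.p6) were matched by symbol for 3 of the 5 members, Ccl3, Xcl1 and Ccl1. They are shown because Ccl3 and Xcl1 lay above the array median throughout while Ccl1 lay mostly below it, and because each window can be read for the core that NFAT, the calcium-driven factor of T cell stimulation, recognises. Each line gives the 250 bases before the gene's start, 5′ to 3′ on the gene's own strand, with GGAAA or its reverse complement TTTCC in capitals.
Ccl3, chr11:83649379-83649628, minus strand: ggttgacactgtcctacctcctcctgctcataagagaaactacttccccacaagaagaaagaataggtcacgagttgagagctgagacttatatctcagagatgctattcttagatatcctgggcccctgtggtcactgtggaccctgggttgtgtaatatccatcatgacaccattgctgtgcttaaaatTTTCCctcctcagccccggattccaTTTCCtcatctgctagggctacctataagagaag
Xcl1, chr1:164935523-164935772, minus strand: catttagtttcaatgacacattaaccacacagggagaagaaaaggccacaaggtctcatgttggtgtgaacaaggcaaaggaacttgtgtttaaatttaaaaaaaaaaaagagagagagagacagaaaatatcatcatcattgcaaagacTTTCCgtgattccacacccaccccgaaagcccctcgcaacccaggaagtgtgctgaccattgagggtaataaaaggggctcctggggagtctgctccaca
Ccl1, chr11:82179813-82180062, minus strand: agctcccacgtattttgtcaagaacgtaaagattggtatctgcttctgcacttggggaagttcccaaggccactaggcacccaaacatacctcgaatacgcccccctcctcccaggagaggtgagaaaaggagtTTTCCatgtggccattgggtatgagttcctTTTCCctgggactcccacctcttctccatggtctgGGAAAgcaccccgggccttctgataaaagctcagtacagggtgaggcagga
GGAAA on either strand occurred 2 times before Ccl3, 1 time before Xcl1 and 3 times before Ccl1. Of 32851 windows of the same length, 55.6% held it at least 1 time and 6.39% held it 3 or more times. TATAA on either strand occurred 2 times before Ccl3, of which 1 match on the gene's strand ended 7 bases before the start, and 22.8% of windows held it. No window of the 3 held the NF-kappaB consensus, searched on both strands and present in 3.90% of windows. None of the matches overlapped another. A match is a stretch of letters and was not tested for binding.

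The 9 arrays differed more by number than by culture. Number accounted for 85.0% of the squared deviations of all genes and culture for 6.59%. The allogeneic array and the antibody array of number 1 nearly coincided, with an SD of their difference over genes of 0.10 (log2), against 0.49 in number 2 and 0.68 in number 3. Between 17.9% and 49.0% of genes had exactly equal values on 2 arrays of a number, which for a member happened 1 time, for Ccl1 in number 2. Array medians ran from 4.58 to 5.67 (log2). All 11 T cell markers measured, Cd3e and Cd4 among them, lay above the array median on each of the 9 arrays. Differences are therefore given within each number as well as between group means, and tests are limma's, with Benjamini-Hochberg adjustment over all 18193 genes. Unless the block is named, the SE beside a difference is from the fit without number as a block. It therefore includes the spread between numbers and is not the error of the differences within numbers. With the block the SE was 0.29 for Ccl3, 0.49 for Ccl4, 0.36 for Ccl5, 0.45 for Xcl1 and 0.07 for Ccl1. Fits that left out 1 array carried no block. Where that array was of a compared group, the 2 groups no longer held the same numbers. Differences between numbers then entered the value, which is not a measure of the differences within numbers.

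The allogeneic and syngeneic co-cultures differ in the strain of the dendritic cells, so their being foreign and their strain cannot be told apart. Ccl3, Ccl4, Xcl1 and Ccl1 had higher signals in allogeneic than in syngeneic culture within all 3 numbers, and Ccl5 had lower signals within all 3. Over all genes, 7.29% were higher and 7.96% lower in all 3 numbers. Among the 8124 genes with unequal values in every number, as all 5 members had, the shares were 16.3% and 17.8%. The median difference of the 5 members was 0.33 (log2), against 0.03 for all genes. No member passed the test, with adjusted p = 1 for each, and limma called 0 of 18193 genes (0%). The unadjusted p was under 0.05 for 27 genes, of which no member was one (0.0330% of all genes on the higher side and 0.115% on the lower). With number as a block limma also called 0 genes, and Ccl3 and Ccl1 were higher at an unadjusted p under 0.05 (0.0222 and 0.00600, both with adjusted p = 0.709), where 2.33% of genes were higher and 2.21% lower. No member had groups that did not overlap, against 0.192% of genes higher and 0.451% lower.

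**Figure D1:**
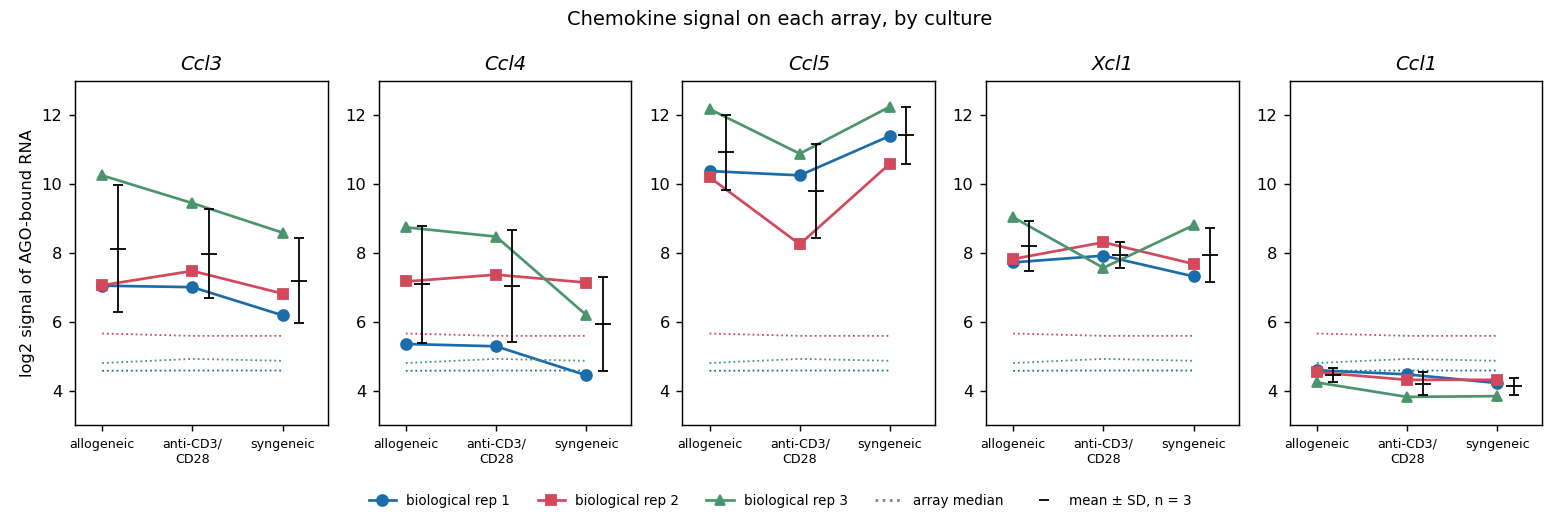
Log2 signal of each chemokine gene on each of the 9 arrays (vertical axis) by culture (horizontal axis); lines join arrays of 1 biological rep number, black marks are the group mean ± SD (n = 3) and dotted lines are the array medians. Ccl5 is lowest after anti-CD3/CD28 in each number, Ccl3 and Ccl4 are lowest after syngeneic culture in each number, and Ccl1 lies at or near the array medians or below them.

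Ccl3 had signals of 7.06, 7.07 and 10.26 (log2) on the allogeneic arrays of numbers 1, 2 and 3, of 7.01, 7.48 and 9.45 on the anti-CD3/CD28 arrays and of 6.19, 6.82 and 8.60 on the syngeneic arrays. The number 3 arrays were high in every culture, and within each number the syngeneic array was the lowest, though the groups overlapped. Allogeneic culture averaged 8.13 ± 1.85 (SD, n = 3), anti-CD3/CD28 culture 7.98 ± 1.29 and syngeneic culture 7.20 ± 1.24. The log2 difference of allogeneic from syngeneic culture was 0.92 ± 0.98 (SE), made of 0.86, 0.24 and 1.66 within the numbers. It turned to −0.14 without allogeneic replicate 3, a fit that no longer holds equal numbers in the groups. Anti-CD3/CD28 differed from syngeneic culture by 0.78 ± 0.98, with 0.82, 0.66 and 0.86 within the numbers, and was 0.044 without anti-CD3/CD28 replicate 3 and 1.47 without syngeneic replicate 3. Allogeneic minus anti-CD3/CD28 was 0.14 ± 0.98 (0.04, −0.42 and 0.80), a difference whose sign changed between numbers. Ccl3 lay 1.23 to 5.45 (log2) above the array median.

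Ccl4 had signals of 5.36, 7.18 and 8.75 on the allogeneic arrays, of 5.30, 7.38 and 8.48 on the anti-CD3/CD28 arrays and of 4.45, 7.15 and 6.20 on the syngeneic arrays. The syngeneic array was again the lowest in each number, by little in number 2 and by much in number 3. Means were 7.10 ± 1.70 (SD, n = 3) in allogeneic, 7.05 ± 1.62 in anti-CD3/CD28 and 5.93 ± 1.37 in syngeneic culture. Allogeneic minus syngeneic was 1.16 ± 1.03 (SE), from 0.91, 0.03 and 2.55 within the numbers. It was 0.34 without allogeneic replicate 3 and 2.03 without allogeneic replicate 1. Anti-CD3/CD28 minus syngeneic was 1.12 ± 1.03, from 0.84, 0.23 and 2.28, and it was 0.38 without syngeneic replicate 1, 0.40 without anti-CD3/CD28 replicate 3 and 2.00 without anti-CD3/CD28 replicate 1. The 2 stimulated cultures differed by 0.05 ± 1.03, from 0.07, −0.20 and 0.27, so the order of allogeneic and anti-CD3/CD28 culture was not resolved. Ccl4 was below its array's median in syngeneic replicate 1 and in no other array, so the size of the difference in number 1 is not exact.

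The deviations of Ccl3 and Ccl4 from the mean of each number ran side by side over the 9 arrays, with Pearson r = 0.89. For Ccl3 and Ccl5 the same value was −0.46, and for Ccl3 and Xcl1 it was 0.36. Ccl1, from dim signals, had 0.73 with Ccl3 and 0.54 with Ccl4. The 3 genes nearest to Ccl3 and the 3 nearest to Ccl4 by this measure had r of 0.976 or more. Neither Ccl3 nor Ccl4 was among those of the other. These are descriptions over arrays that share cultures and processing. Ccl3 and Ccl4 are next to each other on chromosome 11 and their RefSeq records overlap. The positions of the probes were not analysed here, so signal shared between the 2 genes was not tested.

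Ccl5 had signals of 10.39, 10.21 and 12.19 on the allogeneic arrays, of 10.26, 8.26 and 10.89 on the anti-CD3/CD28 arrays and of 11.41, 10.60 and 12.26 on the syngeneic arrays. Within every number the signal was lowest after anti-CD3/CD28, next after allogeneic and highest after syngeneic culture, whereas Ccl3 and Ccl4 were lowest after syngeneic culture. Anti-CD3/CD28 culture averaged 9.80 ± 1.37 (SD, n = 3), allogeneic culture 10.93 ± 1.09 and syngeneic culture 11.42 ± 0.83, and the groups overlapped. Anti-CD3/CD28 minus syngeneic was −1.62 ± 0.71 (SE), with −1.15, −2.34 and −1.37 within the numbers. Its unadjusted limma p was 0.0397, where 0.775% of genes were lower at an unadjusted p under 0.05, and its adjusted p was 1. With number as a block the unadjusted limma p was 0.00533 and the adjusted p 0.684. Among all genes the difference stood at the lowest 0.989 percent. Without anti-CD3/CD28 replicate 2 it was −0.85 and without anti-CD3/CD28 replicate 3 it was −2.16.

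The gap between allogeneic and syngeneic culture was smaller for Ccl5, at −0.50 ± 0.71 (SE), with −1.02, −0.40 and −0.07 within the numbers. Without syngeneic replicate 2 it was −0.91, and the range over the fits that left out 1 array was −1.13 to −0.08. Allogeneic minus anti-CD3/CD28 was 1.12 ± 0.71, with 0.12, 1.95 and 1.30 within the numbers. Without the arrays numbered 1, where these 2 arrays nearly coincide, that difference was 1.62, with adjusted p = 1. It was 0.35 without anti-CD3/CD28 replicate 2 and 0.49 without allogeneic replicate 3. On the arrays Ccl5 lay 2.66 to 7.38 (log2) above the median, and at or above the 96.3rd percentile of probe sets on every array other than anti-CD3/CD28 replicate 2, where it was at 87.0.

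**Figure D2:**
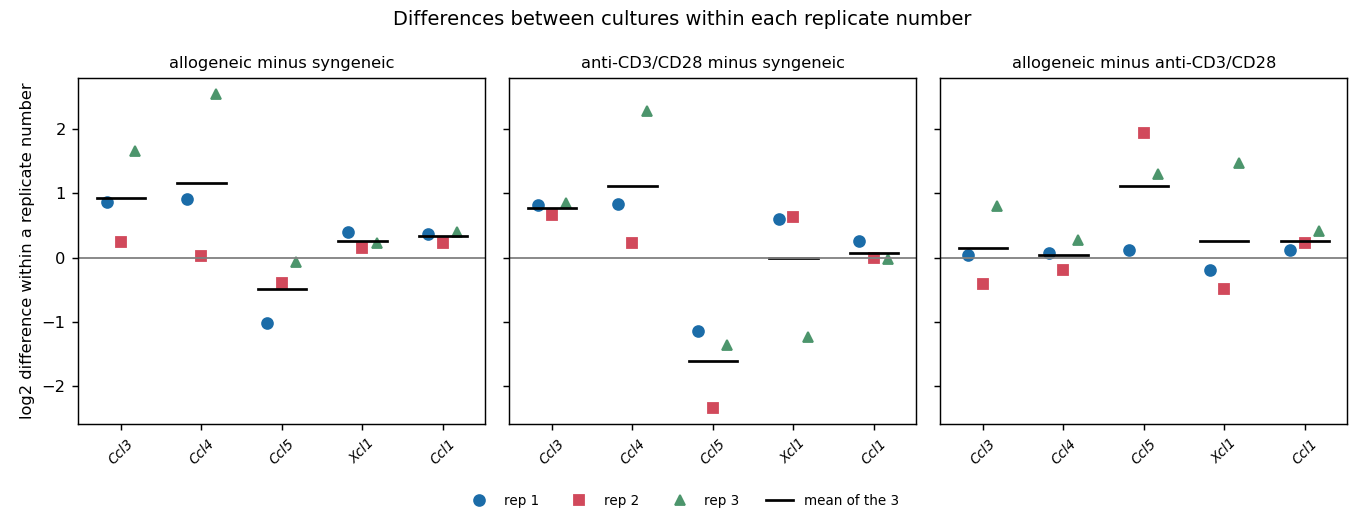
Log2 differences between cultures (vertical axis) for each chemokine gene, 1 panel per comparison; symbols are the 3 biological rep numbers and bars their mean. Ccl5 has 3 negative values in anti-CD3/CD28 minus syngeneic, from −2.34 to −1.15, and Ccl3 has 3 positive ones, from 0.66 to 0.86.

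Signals of other cells' markers are given beside Ccl5, though no marker of any list passed the test in any comparison. All 10 macrophage markers measured were lower in anti-CD3/CD28 than in syngeneic culture, and likewise in allogeneic than in syngeneic culture. Their summed signal (log2 of the sum) was 9.26 to 10.06 on the allogeneic arrays, 8.10 to 9.46 on the anti-CD3/CD28 arrays and 11.94 to 12.76 on the syngeneic arrays, without overlap between syngeneic and stimulated cultures. Lyz2 was the brightest of the 10 on every array other than anti-CD3/CD28 replicate 3, at 6.32 to 12.61 over the arrays, so the sum leans on it. Against syngeneic culture, 3 of the 10 were lower without overlap after allogeneic culture and 3 after anti-CD3/CD28. Of all genes 0.451% and 1.52% were. Of the 10, C1qa never exceeded the median of its array, Cd14 and C1qc did on 2 arrays each, and Adgre1 and Mrc1 on 3 each. The summed signal of the 10 dendritic cell markers was 11.67 to 13.99 on allogeneic arrays, 11.43 to 12.87 on anti-CD3/CD28 arrays and 12.04 to 13.86 on syngeneic arrays. Of these, 9 were lower in each stimulated culture than in syngeneic culture, and Cd209a was at or under the median throughout. On the anti-CD3/CD28 arrays of numbers 2 and 3 the sum leaned on H2-Aa, H2-Ab1 and Cd74, at 9.43 to 11.84. Fscn1 stood at 7.72 to 7.75 there, and on the array of number 1 it was the brightest, at 9.97. The cell type these signals came from was not tested. Within every number the anti-CD3/CD28 array had the lowest sum of both lists and the lowest Ccl5, and the same held for the sum of B cell markers. The macrophage and B cell sums were highest after syngeneic culture in every number, as Ccl5 was, while the dendritic cell sum of number 3 was 13.99 after allogeneic and 13.86 after syngeneic culture. T cell markers summed to 13.45 to 14.59 on allogeneic, 13.88 to 14.85 on anti-CD3/CD28 and 13.36 to 14.65 on syngeneic arrays. The 5 B cell markers summed to 11.89 to 12.92 on allogeneic, 11.22 to 12.69 on anti-CD3/CD28 and 12.47 to 13.77 on syngeneic arrays. Ighm was the brightest of the 5 on every array, at 10.68 to 13.76, so the sum leans on it. The list did not move as a set. After anti-CD3/CD28, 3 were higher and 2 lower than after syngeneic culture. Against anti-CD3/CD28 culture, 1 was higher and 4 lower after allogeneic culture. The 7 granulocyte and mast cell markers, of which Fcer1a and Ms4a2 never exceeded the median, summed to 7.45 to 10.26 on allogeneic, 7.15 to 8.51 on anti-CD3/CD28 and 7.53 to 10.46 on syngeneic arrays. The part of other cells in the Ccl5 signal was not tested. No dendritic cells are named for the antibody culture, so the stimulus and the lack of added dendritic cells cannot be told apart there.

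**Figure D3:**
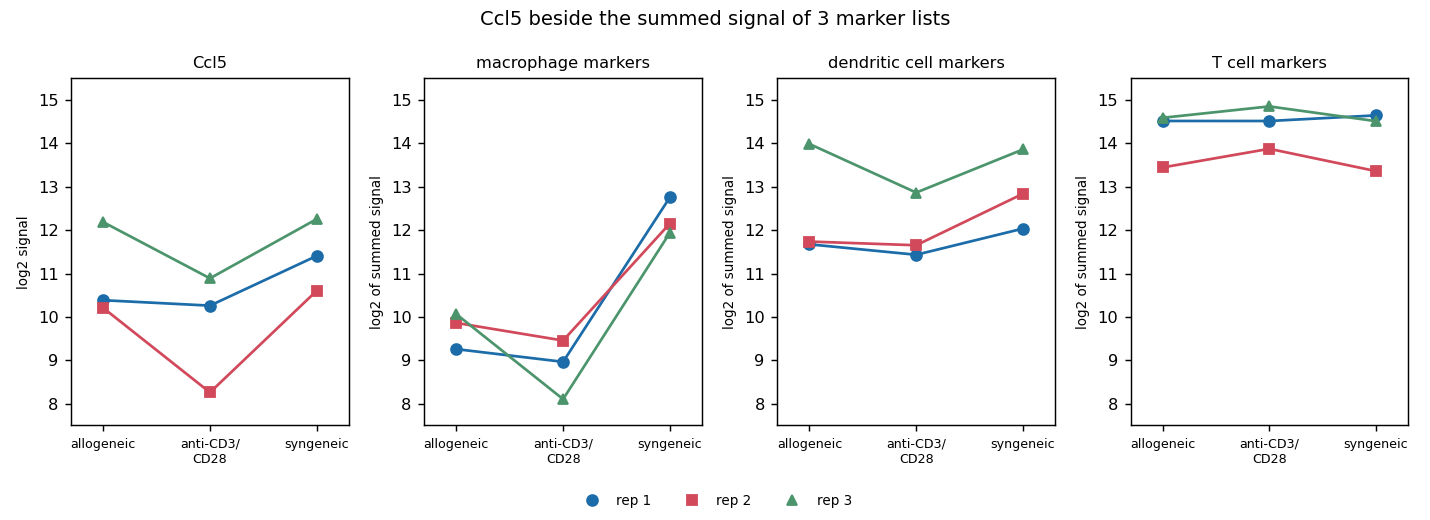
Log2 signal of Ccl5 (left panel) and log2 of the summed signal of 3 marker lists (other panels) on each array by culture; lines join arrays of 1 biological rep number. Ccl5, macrophage and dendritic cell markers are lowest after anti-CD3/CD28 in each number, while T cell markers are highest after anti-CD3/CD28 in numbers 2 and 3.

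Xcl1 had signals of 7.73, 7.83 and 9.04 on the allogeneic arrays, of 7.93, 8.32 and 7.57 on the anti-CD3/CD28 arrays and of 7.33, 7.69 and 8.81 on the syngeneic arrays. Allogeneic arrays stood above the syngeneic array of their number every time, by 0.41, 0.14 and 0.23, while the antibody array was the highest in numbers 1 and 2 and the lowest in number 3. Means were 8.20 ± 0.73 (SD, n = 3) in allogeneic, 7.94 ± 0.37 in anti-CD3/CD28 and 7.94 ± 0.78 in syngeneic culture. Allogeneic minus syngeneic was 0.26 ± 0.63 (SE). It was −0.16 without allogeneic replicate 3 and −0.048 without syngeneic replicate 1, fits whose groups no longer hold the same numbers. Anti-CD3/CD28 minus syngeneic was −0.002 ± 0.63, from 0.60, 0.63 and −1.24 within the numbers, which cancel in the mean. Number accounted for 38.3% of the squared deviations of Xcl1 and culture for 5.11%, with 56.6% in neither, against 8.43% in neither for all genes pooled. NK cells are another source of Xcl1, and among 7 NK cell markers Ncr1 and Klra8 never exceeded the median of their array. Klrd1, Nkg7, Klrk1 and Fcgr3 exceeded it on all 9 arrays and Klre1 on 4. The part of NK cells in the Xcl1 signal was not tested. The NK list summed to 9.28 to 11.24 on allogeneic, 9.68 to 11.65 on anti-CD3/CD28 and 9.58 to 11.35 on syngeneic arrays (log2).

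Ccl1 had signals of 4.60, 4.54 and 4.25 on the allogeneic arrays, of 4.48, 4.32 and 3.83 on the anti-CD3/CD28 arrays and of 4.23, 4.32 and 3.85 on the syngeneic arrays. It did not exceed the median of its array on 8 arrays and stood 0.014 (log2) over it on allogeneic replicate 1, so the sizes of its differences are not exact. The allogeneic array was the highest in each number. Allogeneic minus syngeneic was 0.33 ± 0.46 (SE), from 0.37, 0.22 and 0.40, and 0.19 without syngeneic replicate 3. Allogeneic minus anti-CD3/CD28 was 0.25 ± 0.46, from 0.12, 0.22 and 0.42. Without anti-CD3/CD28 replicate 3 it was 0.061, and without anti-CD3/CD28 replicate 1 it was 0.39. Anti-CD3/CD28 minus syngeneic was 0.08 ± 0.46, from 0.25, 0.00 and −0.02, where the middle value comes from 2 exactly equal signals.

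In the comparison of anti-CD3/CD28 with syngeneic culture as a whole, Ccl3 and Ccl4 were higher in all 3 numbers, where 7.80% of all genes and 18.8% of genes with unequal values were. Ccl5 was lower in all 3, where 9.15% and 22.1% were. The median difference of the 5 members was 0.08, against 0.00 for all genes. In allogeneic against anti-CD3/CD28 culture all 5 group differences were positive, as were those of 11117 of all 18193 genes. The 5 ran from 0.05 to 1.12, with a median of 0.25 against 0.04 for all genes. However, Ccl4 turned to −0.055 with quantile normalization and to −0.099 with arrays centred on their medians, and Ccl3 to −0.0015 with centred arrays. With array weights 3 of the 5 turned, Ccl4 to −0.38, Ccl3 to −0.11 and Xcl1 to −0.020. Of the 5, Ccl5 and Ccl1 were higher in all 3 numbers, where 4.39% of all genes and 13.5% of genes with unequal values were. Neither comparison called a member or any gene (0%), and 156 and 24 genes had an unadjusted p under 0.05. Higher genes at that p made up 0.0824% after anti-CD3/CD28 against syngeneic culture, and 0.126% higher and 0.00550% lower in allogeneic against anti-CD3/CD28 culture, with no member among them. With number as a block, Ccl3 (0.0404) and Ccl5 passed an unadjusted p of 0.05 against syngeneic culture, where 2.23% of genes were higher and 4.56% lower, and Ccl5 (0.0236) and Ccl1 (0.0177) did in the other, where 0.792% were higher and 0.335% lower. All adjusted p were at least 0.684. Groups of all 5 members overlapped in both comparisons, where 0.412% of genes were higher and 1.52% lower without overlap after anti-CD3/CD28 against syngeneic culture, and 0.269% and 0.0550% in allogeneic against anti-CD3/CD28 culture. No member was lower in all 3 numbers in allogeneic against anti-CD3/CD28 culture, where 2.58% of all genes and 7.90% of genes with unequal values were. These comparisons share their arrays, so the values of a member in them are not independent.

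Receptors of the 5 chemokines were mostly dim. Of 6 measured, Ccr1, Ccr3 and Xcr1 never exceeded the median of their array. The receptor of Ccl1, Ccr8, had signals of 4.42, 4.43 and 8.003 on the allogeneic arrays, of 4.42, 4.15 and 5.61 on the anti-CD3/CD28 arrays and of 4.52, 3.68 and 5.52 on the syngeneic arrays. It was above the array median only on the 3 arrays of number 3, where it was highest after allogeneic culture. Allogeneic minus syngeneic was 1.05 ± 0.91 (SE; limma adjusted p = 1), from −0.10, 0.76 and 2.48 within the numbers, so it rested mostly on number 3, and its size is not exact because the signals of numbers 1 and 2 lay below the array medians. No receptor of the list was higher or lower in all 3 numbers of any comparison.

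The other chemokines measured ran lower rather than higher outside syngeneic culture. Of 28, 19 were lower and 9 higher after allogeneic than after syngeneic culture, with a median log2 difference of −0.11, and 23 were lower and 5 higher after anti-CD3/CD28, with a median of −0.44. Of all 18193 genes, 7783 were lower and 10263 higher after allogeneic culture, and 8748 were lower and 8976 higher after anti-CD3/CD28. None passed the test. The neutrophil chemoattractant Cxcl3 had signals of 5.89, 2.82 and 3.20 on the anti-CD3/CD28 arrays and 6.59, 6.12 and 8.44 on the syngeneic arrays, a difference of −3.08 ± 0.87 (SE). Its size is not exact, since the anti-CD3/CD28 signals of numbers 2 and 3 lay below the medians of their arrays. Its groups did not overlap, as held for 5 of the 28 in that comparison (Ccl22, Ccl9, Cxcl16, Cxcl2 and Cxcl3, of which Ccl22, Cxcl16 and Cxcl2 are named after their values were seen), all lower, against 1.52% of all genes. Between allogeneic and anti-CD3/CD28 culture 22 of the 28 were higher and 6 lower (median 0.39), where 11117 of all 18193 genes were higher and 6728 lower (median 0.04).

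The position of the genes adds a contrast within the family. Among protein-coding genes of the RefSeq table (GRCm38.p6), Ccl5, Ccl9, Ccl6, Ccl3 and Ccl4 follow each other on chromosome 11, while Ccl1 ends a run of 6 chemokine genes that lies 25 protein-coding genes away, and Xcl1 is on chromosome 1. Ccl9 and Ccl6, chemokines of myeloid cells, lie between Ccl5 and Ccl3. Ccl9 had signals of 5.72, 6.57 and 4.96 on the anti-CD3/CD28 arrays and 8.07, 8.70 and 8.87 on the syngeneic arrays, a difference of −2.79 ± 0.70 (SE; limma adjusted p = 1). Ccl6 had a mean difference of −2.41 in the same comparison, with −0.30, −2.29 and −4.63 within the numbers, of which −4.63 and the mean are not exact because anti-CD3/CD28 replicate 3 lay below its array's median. Within this run the 3 genes from Ccl5 to Ccl6 were lower and the other 2, Ccl3 and Ccl4, higher in both stimulated cultures than in syngeneic culture, in all 3 numbers. The run of Ccl1 had mean differences from −0.52 (Ccl8) to 0.08 (Ccl1) after anti-CD3/CD28. Of its 6 genes, Ccl7 and Ccl12 were above the array median on 0 arrays, Ccl1 on 1, Ccl8 on 2, Ccl11 on 3 and Ccl2 on 8. The sizes of the differences in this run are therefore mostly not exact.

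**Figure D4:**
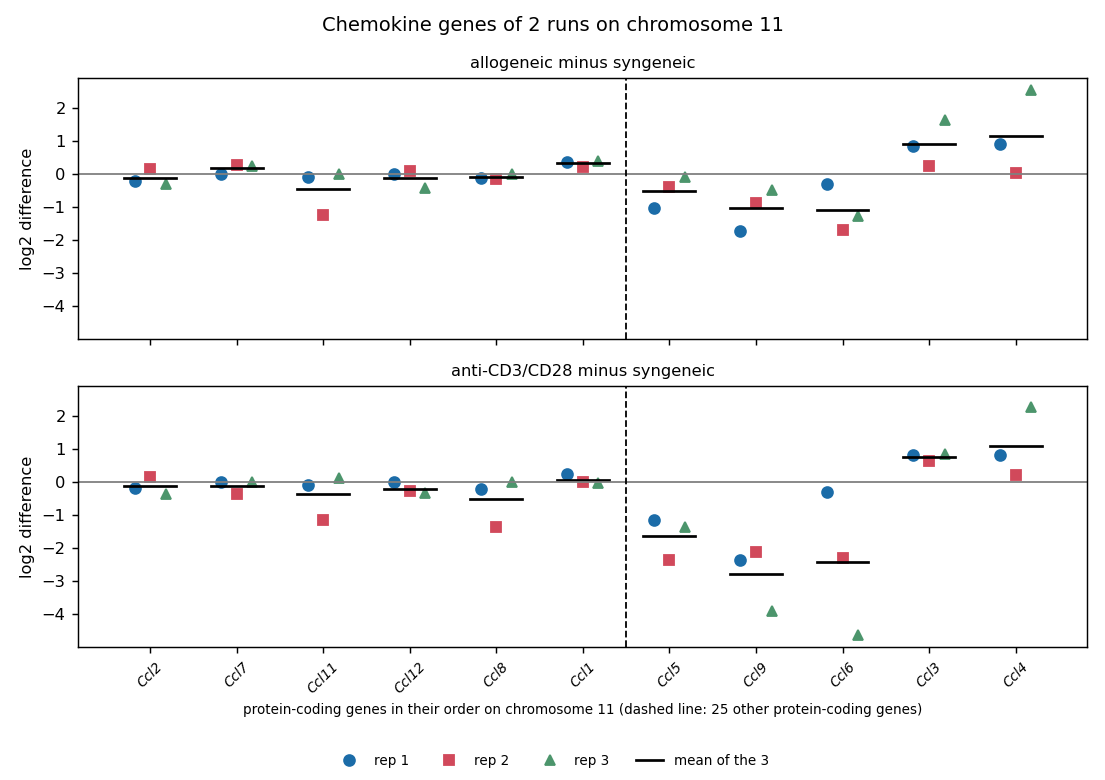
Log2 differences from syngeneic culture (vertical axis) for chemokine genes in their order on chromosome 11 (horizontal axis, not to scale); symbols are the 3 biological rep numbers and bars their mean. Right of the dashed line Ccl5, Ccl9 and Ccl6 lie below 0 and Ccl3 and Ccl4 above it in both panels.

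Genes that T cells express beside these chemokines were compared as a list of 10 effector genes. After allogeneic culture 7 were higher and 3 lower than after syngeneic culture, with a median of 0.63. The granule protease Gzmb and the growth factor Il2 were higher in all 3 numbers, with differences of 2.09 ± 0.71 and 2.08 ± 0.92 (SE), and so was the cytokine Lta, named after its values were seen. After anti-CD3/CD28 8 were higher and 2 lower than after syngeneic culture (median 0.27), and Gzmb was the gene higher in all 3 numbers. The protease Gzma was lower there in all 3, by a mean difference of −1.68 ± 0.77 (−0.41, −1.25 and −3.39 within the numbers), whose size is not exact because anti-CD3/CD28 replicate 3 lay below its array's median. None of the 10 passed limma's test in either comparison.

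Below the receptors, 17 genes of chemokine receptor signalling were measured. Rgs16, which shortens G protein signals, had signals of 8.68, 8.73 and 9.67 on the anti-CD3/CD28 arrays and 7.44, 8.02 and 8.14 on the syngeneic arrays, a difference of 1.16 ± 0.55 (SE) without overlap, where 0.412% of all genes were higher without overlap. After allogeneic culture it had 8.35, 8.21 and 8.95, also without overlap with syngeneic culture, as held for 0.192% of all genes on the higher side. Rgs1, of the same family, went the other way, with a difference of −0.83 ± 0.45 between anti-CD3/CD28 and syngeneic culture, lower in all 3 numbers. Its groups did not overlap either, where 1.52% of all genes were lower without overlap. In all, 6 were higher and 11 lower after allogeneic than after syngeneic culture, and 8 higher and 9 lower after anti-CD3/CD28. Among 15 other chemokine receptors 11 were lower and 4 higher after allogeneic than after syngeneic culture. In all 3 numbers 4 of them were lower, where 7.96% of all genes and 17.8% of genes with unequal values were. Cxcr4, the receptor of Cxcl12, was among these 4, with a difference of −0.58 ± 0.37 (SE). No gene of these lists passed the test.

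Genes with the most similar pattern were sought for each member among 4748 genes, by Pearson r of the deviations from each number's mean over the 9 arrays. For Ccl5 they were Usp18, a protease that removes ISG15 (r = 0.996), Socs3, a feedback inhibitor of cytokine receptors (r = 0.993), and the transcription factor Irf2 (r = 0.988). For Ccl4 they were Zfp574 (r = 0.987), Ehd4 (r = 0.980) and Rcc1 (r = 0.979). For Ccl3 they were Nacc1 (r = 0.981), the cyclin Ccnf (r = 0.980) and Rangrf (r = 0.976). Acbd6 (r = 0.985), Klf16 (r = 0.972) and Lsm3 (r = 0.969) came nearest to Xcl1. Dcaf12 (r = 0.976), Txn2 (r = 0.929) and Il2 (r = 0.924) came nearest to Ccl1. Ccl1 itself exceeded the array median on 1 array only, and its cultures differed by at most 0.42 (log2) within a number. Its r values therefore rest on small differences between dim signals. Socs3 had signals of 9.40, 7.81 and 9.22 on the anti-CD3/CD28 arrays, of 9.50, 10.18 and 10.81 on the allogeneic arrays and of 10.77, 10.30 and 11.09 on the syngeneic arrays. These values rank likeness over 9 arrays that share cultures and carry no test.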

How the data were processed

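Log2 signals per probe set, made by the authors with RMA (robust multi-array average) per the submitters' processing notes, were used as deposited for 45101 probe sets on 9 arrays; the software with its version, and which arrays were normalized together, are not given in the sources. Left out were 64 control probe sets, 932 annotated to more than 1 gene and 9160 without a gene. The other 34945 got symbols from the platform annotation, 34741 updated by gene ID through a RefSeq table, and each of 18193 genes was represented by its brightest probe set.

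The tests used limma (version 3.58.1, under R 4.3.3; 1 mean per group, all 9 arrays, intensity trend, Benjamini-Hochberg over all genes, threshold 0.05). The number pairs the arrays, as deviations from group means correlated at 0.811 to 0.921 for the 9 same-number pairs. The fit with number as a block is an alternative, as are other scalings, filters, priors, probe set choices and leaving out arrays. Fits without the arrays numbered 1 were added after the data were seen. The script was tested on simulated data.

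Summed marker signals are log2 of summed linear signals. Likeness was limited to genes with a number-centred SD of at least 0.3 and signals above the array median on at least 3 arrays, predicted genes not named. These limits were set on the compared genes and not on the members, and Ccl1 does not meet them. From each other list up to 3 genes with the smallest p per comparison could be named. Cxcr1, Ccl19, Grk2, Klrb1c and Ly6g were not analysed here, and some other list genes are not reported here. The members and lists were chosen with earlier results of these data known. Scanner files and arrays of input RNA were not used here.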

Additional observations from a re-analysis of the deposited data

How the results depend on the processing

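With the replicate block, log2 differences stayed as they were and no call changed: Ccl5 after anti-CD3/CD28 against syngeneic culture was −1.62 ± 0.36 (SE; limma adjusted p = 0.684) and Ccl3 0.78 ± 0.29 (adjusted p = 0.727). Over all alternatives the lowest adjusted p of a member was 0.0677, for that Ccl5 difference with a random replicate block. No member was called under any of the settings run. Genes called over all genes went to 1 between allogeneic and syngeneic culture and to 30 between anti-CD3/CD28 and syngeneic culture with the random block, and to 1 and 1 with arrays centred on their medians, against 0 otherwise, and 0 genes were called in every fit that left out 1 array. Signs turned as follows. Xcl1 after anti-CD3/CD28 against syngeneic culture was 0.10 with quantile normalization, 0.11 with centred arrays and 0.21 with array weights. In allogeneic against anti-CD3/CD28 culture, Ccl3 was −0.0015 with centred arrays and −0.11 with array weights, Ccl4 was −0.055, −0.10 and −0.38 with quantile normalization, centred arrays and array weights, and Xcl1 was −0.020 with array weights. Without the arrays numbered 1, with or without the replicate block, Ccl1 after anti-CD3/CD28 against syngeneic culture was −0.011. Leaving out 1 array at a time gave −0.14 to 1.62 for Ccl3 and −0.16 to 0.70 for Xcl1 (allogeneic against syngeneic), −0.066 to 0.27 for Ccl1 and −0.31 to 0.43 for Xcl1 (anti-CD3/CD28 against syngeneic), and −0.92 to 0.88 for Ccl3, −0.83 to 0.91 for Ccl4 and −0.16 to 0.50 for Xcl1 (allogeneic against anti-CD3/CD28). Ccl5 kept its sign in every such fit, at −2.16 to −0.85 (anti-CD3/CD28 against syngeneic), −1.13 to −0.079 (allogeneic against syngeneic) and 0.35 to 1.67 (allogeneic against anti-CD3/CD28). Fits that left out 1 array were run without the block only. Where that array was of a compared group, the groups no longer held the same numbers, so differences between numbers enter these ranges. The causes of the other turns were not tested. Signals at or under the array median limit the sizes for Ccl1.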
